A study of Mus musculus with 4 samples.

Results

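Imprinted genes outside the Dlk1-Dio3 cluster were followed in induced pluripotent stem (iPS) cells, mouse embryonic fibroblasts (MEFs) and embryonic stem (ES) cells. The group was made of 37 named genes of well-known imprinted loci, and every gene probe of the array that bore one of their names was taken. This gave 74 of the 41174 gene probes, printed as 83 spots. After a filter on signal and on marked spots 56 of the 74 probes, belonging to 35 of the 37 genes, were tested among 24874 probes and 17241 genes in all. The genes that dropped out were Slc22a2 and Slc22a3, transporters of organic cations near Igf2r, whose single probes were not well above background. Of the 35 tested, Zim1 passed the signal filter through MEFs alone and Calcr and Rasgrf1 through ES cells alone.

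RNA of 3 kinds of mouse cells was hybridised to 4 Agilent whole-genome oligonucleotide arrays with 2 colours. The iPS cells were an induced pluripotent clone, harvested 30 days after transduction and measured in the red channel (Cy5) of 2 arrays. The MEFs had been passaged several times and were measured in red on the other 2 arrays. The ES cells were the line CGR8.8, measured in the green channel (Cy3) of all 4 arrays. ES and iPS cells were grown with leukemia inhibitory factor at 1000 IU/ml, a cytokine that keeps mouse pluripotent cells undifferentiated. The iPS cells are described as a clone and the ES cells as a line, so each stands for 1 derivation. Age, sex and strain of the donors and the transduced factors are not given in the sources used here. The labels call the replicates biological and name no separate cultures, and the p-values therefore cover only the spread among these arrays, part of which may be technical.

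Genomic imprinting is the expression of a gene mainly from the chromosome inherited from 1 parent. A DNA methylation mark set in the germ line at an imprinting control region is kept through the reprogramming of the early embryo, with the help of the zinc-finger protein Zfp57, its partner Trim28 and the maintenance methyltransferase Dnmt1, and directs which parental copy is read. Many imprinted genes act on fetal growth and on the placenta, and their marks are known to drift in cultured pluripotent cells. The probes used here do not tell parental copies apart, so each value below is the RNA of both copies together. In the same way, fewer cells of a type and less RNA per cell cannot be told apart in these bulk samples.

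Promoters of 31 of the 37 genes were matched by symbol in a RefSeq table (build GRCm38.p6, windows from 250 bases before to 50 bases after a transcription start). The 6 letters TGCCGC, which Zfp57 is known to bind when methylated, were searched on both strands. They occurred in 11 of the 31 genes (35.5%), taking for each gene its window with the most matches, and in 3527 of all 27025 genes (13.1%). Counted over single windows, 25.0% of 48 windows of imprinted genes and 11.6% of all 32851 windows held the letters. The median number of CpG pairs in the genes' windows was 17 for imprinted genes and 8 for all genes. A match is a description of the letters and not a bound site. The 6 windows printed here belong to genes whose values carry the comparisons below, each being its gene's window with the most matches, and then the most CpG pairs, among those in the table, with the searched letters in capitals on either strand.
Grb10 (chr11:12037371-12037670, minus strand): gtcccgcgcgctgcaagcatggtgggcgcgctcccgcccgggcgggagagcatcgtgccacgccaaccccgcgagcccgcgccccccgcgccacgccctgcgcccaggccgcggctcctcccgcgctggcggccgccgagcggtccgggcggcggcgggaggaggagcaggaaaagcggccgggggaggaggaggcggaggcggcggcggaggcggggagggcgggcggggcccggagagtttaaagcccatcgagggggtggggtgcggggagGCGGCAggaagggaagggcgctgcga
Nnat (chr2:157559828-157560127, plus strand): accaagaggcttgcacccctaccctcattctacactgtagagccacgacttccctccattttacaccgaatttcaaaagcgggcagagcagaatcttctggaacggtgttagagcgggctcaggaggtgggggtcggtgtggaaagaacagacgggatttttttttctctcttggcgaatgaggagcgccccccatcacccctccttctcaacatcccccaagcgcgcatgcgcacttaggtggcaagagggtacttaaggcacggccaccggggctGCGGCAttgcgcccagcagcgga
Peg3 (chr7:6730370-6730669, minus strand): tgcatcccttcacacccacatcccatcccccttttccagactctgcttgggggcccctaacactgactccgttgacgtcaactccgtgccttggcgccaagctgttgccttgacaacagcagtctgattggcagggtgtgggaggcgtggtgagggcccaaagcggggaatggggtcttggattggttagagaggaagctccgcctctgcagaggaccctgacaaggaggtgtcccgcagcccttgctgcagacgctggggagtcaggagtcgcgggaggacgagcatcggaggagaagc
Mest (chr6:30737800-30738099, plus strand): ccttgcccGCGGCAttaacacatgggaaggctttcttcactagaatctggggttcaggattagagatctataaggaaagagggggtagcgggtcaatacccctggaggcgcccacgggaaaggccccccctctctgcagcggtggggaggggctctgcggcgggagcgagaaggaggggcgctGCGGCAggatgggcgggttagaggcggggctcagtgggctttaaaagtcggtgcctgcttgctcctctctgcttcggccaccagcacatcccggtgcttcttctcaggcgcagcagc
Igf2 (chr7:142661222-142661521, minus strand): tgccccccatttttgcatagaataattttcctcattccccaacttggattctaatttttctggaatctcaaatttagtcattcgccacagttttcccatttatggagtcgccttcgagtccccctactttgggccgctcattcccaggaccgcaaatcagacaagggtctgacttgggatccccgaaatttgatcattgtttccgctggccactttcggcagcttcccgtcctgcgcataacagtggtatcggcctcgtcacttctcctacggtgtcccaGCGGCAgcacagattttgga
Snrpn (chr7:60005150-60005449, minus strand): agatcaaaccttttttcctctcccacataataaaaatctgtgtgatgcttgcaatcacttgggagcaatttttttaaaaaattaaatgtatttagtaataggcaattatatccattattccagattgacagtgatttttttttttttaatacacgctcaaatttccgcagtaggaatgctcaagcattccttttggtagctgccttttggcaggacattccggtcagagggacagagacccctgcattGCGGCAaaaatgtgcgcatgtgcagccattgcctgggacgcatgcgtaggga
The window of Mest held the letters at 2 places, those of Grb10, Nnat, Igf2 and Snrpn at 1 place each, and that of Peg3 held none. Because the windows were picked for their matches, other windows of a gene can lack the letters, as did the other 3 of 4 of Igf2 and of Snrpn and the other of 2 of Grb10. The Grb10 window was the richest of the 6 in CpG pairs, with 45. Peg3 and Usp29 start back to back on opposite strands, and their windows shared 263 bases.

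The cells were first checked against markers of their kind. All 6 pluripotency genes (Pou5f1, Nanog, Sox2, Zfp42, Esrrb and Dppa3) were well above background in iPS cells. There 4 were called higher than in ES cells and Pou5f1 was lower (-1.35 ± 0.078, log2 ratio ± standard error, n = 2 arrays). Zfp42 was not called at its brightest probe (-0.60 ± 0.066), while its second probe was called lower (-1.35 ± 0.057). In MEFs all 6 were called lower than in ES cells. All 6 fibroblast markers (Col1a1, Col1a2, Thy1, Pdgfrb, Lox and Postn) were called higher in MEFs than in ES cells, and 5 of the 6 were called lower in iPS cells than in ES cells. Markers of other cell types also differed between the RNAs. The summed normalized intensity of 5 epithelial markers (Krt8, Krt18, Cdh1, Tacstd1 and Cldn6, of which ES cells are known to express Cdh1 and Tacstd1 themselves) was 28800 to 30700 in iPS cells, 18400 to 18700 in MEFs and 398000 to 428000 in ES cells, and that of the 6 fibroblast markers was 1920 to 1930 in iPS cells, 470000 to 480000 in MEFs and 20900 to 31700 in ES cells. In MEFs 3 of 6 macrophage markers were called higher than in ES cells and 1, Cd68, lower (-1.69 ± 0.052). Of all genes 14% were called higher and 13.7% lower there. The summed intensity of the 6 macrophage markers was 935 to 971 in iPS cells, 7630 to 8100 in MEFs and 1360 to 1400 in ES cells. Emr1, Ptprc and Lyz2 of that list were not well above background in iPS cells, and Csf1r, Emr1 and Ptprc not in ES cells. The part of such cells in the results below was not tested.

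The signal cleared background at 62% to 63.4% of the array's gene probes for Cy3 and at 61.1% to 63.2% for Cy5. Across the tested probes the log2 ratios of replicate arrays correlated at 0.992 for iPS cells and 0.989 for MEFs. No spot of an imprinted gene was saturated. The replicate arrays of the 35 genes differed by a median of 0.05 log2 units in iPS cells and 0.09 in MEFs, and most for Copg2, by 0.58 and 1.05.

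In iPS cells, RNA of imprinted genes was more often lower than higher relative to ES cells. Of the 35 genes 5 were called higher and 13 lower, and 17 were not called, where a call needed an adjusted p under 0.05 in limma, with Benjamini-Hochberg adjustment over all probes, and at least a 2-fold change. Over all 17241 genes 9.09% were called higher and 11.9% lower in the same comparison, so the 13 lower genes (37.1% of 35) stood above that share and the 5 higher genes (14.3%) somewhat above theirs. The median log2 ratio was -0.70 for imprinted genes and 0.01 for all genes. In MEFs over ES cells 8 genes (22.9%) were called higher and 7 (20%) lower, against 14% and 13.7% of all genes, with a median of -0.05 for imprinted genes and -0.01 for all. In iPS cells over MEFs 5 genes were called higher and 15 (42.9%) lower, against 17% and 19.1% of all genes. The median there was -0.62 for imprinted genes and 0.02 for all genes. These 3 comparisons share arrays and the ES channel, and they are given side by side for each gene rather than as independent evidence.

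The MEF results depended on how the background of 1 array was handled. The background correction was fitted over spots that the scanner software had not marked as outliers. Fitted over all spots, including 14 spots of MEF replicate 1 with a local background above 500, limma called 0 of the 35 imprinted genes and 0 of all 17241 genes in MEFs over ES cells, so the loss was not particular to imprinted genes. There 12 of the 35 had an unadjusted p under 0.05 and 33 of 35 kept their direction. Sizes shrank as well for 9 of the 15 genes called in MEFs, by more than 1.5 times on the log2 scale. The MEF values in that setting were -0.90 for Snrpn, -0.87 for Mkrn3, -0.78 for Peg10, -0.63 for Cobl, -1.22 for Ppp1r9a and -1.36 for Calcr, and 0.86 for Ndn, 0.69 for Peg12 and 0.87 for Asb4. In that setting 15 were called when iPS cells were set against ES cells and 11 when they were set against MEFs, and over all genes 1172 higher and 1403 lower in the first and 989 higher and 1143 lower in the second. With all marked spots kept the calls numbered 15 for iPS cells over ES cells, 2 for MEFs over ES cells and 12 for iPS cells over MEFs. Over all 18554 genes tested in that setting they were 1263 higher and 1559 lower, 99 higher and 87 lower, and 1115 higher and 1314 lower in the same order. With each array centred on its median in place of loess, the median over all genes shifted to 0.17 for iPS cells over ES cells and 0.19 for MEFs over ES cells. Of the imprinted genes 5 were then called higher and 12 lower in iPS cells, and 12 higher and 7 lower in MEFs, and their medians were -0.30 in iPS cells and 0.21 in MEFs, the second with the opposite sign from loess. Over all genes that setting gave 2582 higher and 1559 lower in iPS cells (1568 and 2056 with loess) and 3602 higher and 1573 lower in MEFs (2413 and 2363 with loess).

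**Figure D1:**
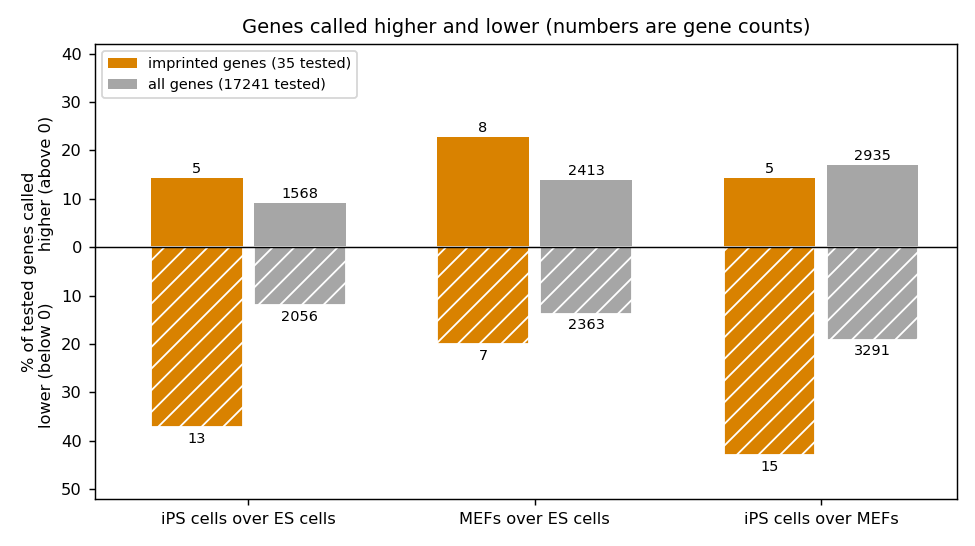
Percentage of tested genes called higher (above 0) and lower (below 0, hatched) in each comparison, for the 35 imprinted genes (orange) and all 17241 genes (grey), with gene counts at the bars. The lower bars of imprinted genes reach 37.1% for iPS cells over ES cells and 42.9% for iPS cells over MEFs, against 11.9% and 19.1% of all genes.

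Igf2, the fetal growth factor read from the paternal copy, and H19, the noncoding RNA of the neighbouring maternal copy, share enhancers and an imprinting control region on distal chromosome 7. The Igf2 probe at chr7:142460185-142460245 (mm8, the build of the array annotation) gave log2 ratios over ES cells of -3.22 and -3.18 in iPS cells, against 3.04 and 3.31 in MEFs. Igf2 was therefore far below ES cells on both iPS arrays and far above on both MEF arrays. The fitted values were -3.20 ± 0.069 for iPS cells (adjusted p = 2.46e-08 in limma) and 3.18 ± 0.069 for MEFs, a 9.04-fold rise. A second Igf2 probe gave -3.26 and -3.36 in iPS cells, against 3.35 and 3.38 in MEFs. The difference of iPS cells over MEFs was -6.38 ± 0.098, the largest in size of the 35 genes.

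H19 was called higher than in ES cells in both groups. Its brightest probe (chr7:142385254-142385313) gave 1.53 and 1.48 in iPS cells, against 2.58 and 2.84 in MEFs. The second probe (chr7:142385503-142385650) gave 1.68 and 1.54 in iPS cells, against 5.07 and 5.27 in MEFs, so the probes lay close together in iPS cells and far apart in MEFs. The sequences of both are shown because their values part.
H19, brightest probe: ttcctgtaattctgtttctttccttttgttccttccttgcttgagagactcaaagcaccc
H19, second probe: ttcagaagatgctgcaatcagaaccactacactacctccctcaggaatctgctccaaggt
The ES channel of the probes differed between arrays as well. At the brightest probe the normalized log2 intensity of ES cells was 8.68 and 8.69 on the iPS arrays, against 11.79 and 11.73 on the MEF arrays. This difference of -3.07 was the largest in size of 22208 probes with ES cells well above background on all arrays, of which 24 differed by 2-fold or more, while the 51 such probes of the other imprinted genes lay between -0.07 and 0.31. The second H19 probe differed by -0.86. The red channel at the brightest probe read 10.21 and 10.17 in iPS cells, above the ES channel of their own arrays and below the ES channel of the MEF arrays, against 14.36 and 14.57 in MEFs. Set directly against each other, the red channels placed H19 at -4.28 in iPS cells over MEFs, where the ratios over ES cells had given -1.21 ± 0.097. With the scanner software's log ratio that difference was -0.91, under 2-fold, and the direction was kept. The cause of the unequal ES signal was not tested.

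**Figure D2:**
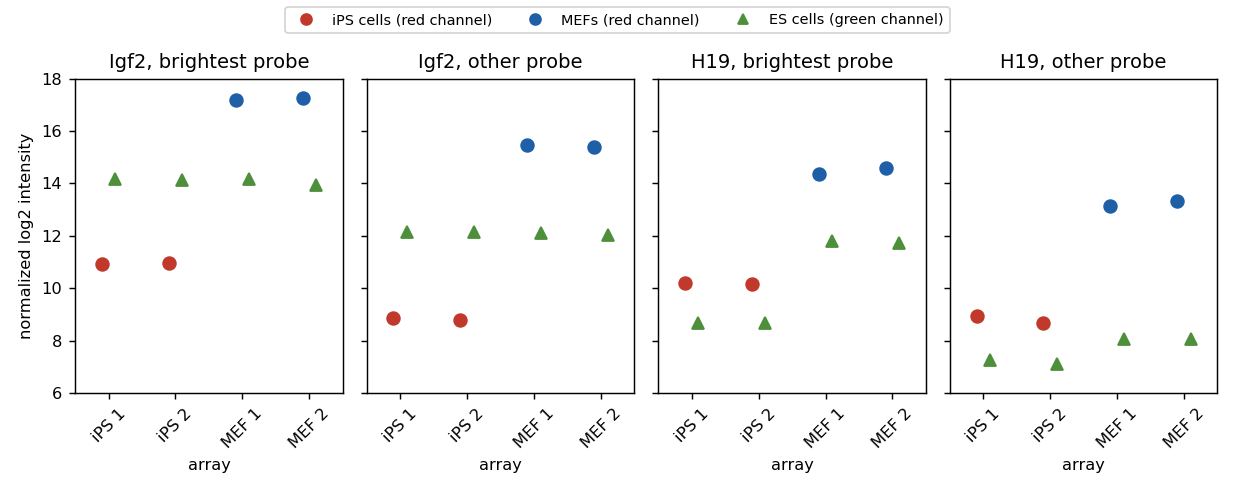
Normalized log2 intensity (y axis) of iPS cells or MEFs in the red channel (circles) and ES cells in the green channel (triangles) on each array, for both probes of Igf2 and of H19. The ES signal of Igf2 was level across arrays, while that of the brightest H19 probe was 8.68 and 8.69 on the iPS arrays, against 11.79 and 11.73 on the MEF arrays.

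Igf2r, the maternally expressed receptor that carries Igf2 to lysosomes for breakdown, gave 0.22 and 0.34 in iPS cells, against 1.70 and 1.77 in MEFs. It rose in MEFs (1.74 ± 0.053, 3.33-fold, adjusted p = 8.21e-08 in limma) and stayed under 2-fold in iPS cells (0.28 ± 0.053). The ligand and its scavenging receptor were thus both above ES cells in MEFs, and in iPS cells the ligand alone was called.

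Grb10 fell the furthest of the 35 genes in iPS cells. Grb10, an adaptor that binds and dampens the insulin and Igf1 receptors, gave -4.05 and -4.07 in iPS cells, against 0.62 and 0.55 in MEFs (chr11:11830965-11831024). The fall in iPS cells was -4.06 ± 0.048 (adjusted p = 4.86e-09 in limma), and MEFs stood within 2-fold of ES cells. The other Grb10 probes gave -3.04 and -2.65 at one and -1.69 and -1.77 at the other in iPS cells, so all 3 probes were called lower with sizes that differed by more than their replicates. On the last of these the RNA of iPS cells was well above background on 1 of 2 arrays.

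Cdkn1c, the cyclin-dependent kinase inhibitor p57, gave -3.07 and -3.13 in iPS cells, against 0.44 and 0.32 in MEFs (chr7:143268238-143268297). It fell in iPS cells (-3.10 ± 0.052) and was not called in MEFs (0.38 ± 0.052). Phlda2, a pleckstrin-homology protein that limits placental growth, fell in both groups, with -2.35 and -2.40 in iPS cells, against -3.49 and -3.20 in MEFs. Its difference of iPS cells over MEFs (0.97 ± 0.10) was just under 2-fold and passed it without MEF replicate 2 (1.11). Gnas, which encodes the stimulatory G-protein alpha subunit, gave -1.97 and -2.11 in iPS cells, against 0.67 and 0.64 in MEFs. It fell in iPS cells (-2.04 ± 0.053).

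The Gnas locus makes several transcripts with different first exons and different imprinting, and the array carries 8 probes at different places of it. The pair furthest downstream, at chr2:173984615-173984776 and chr2:173984834-173986163, were both called lower in iPS cells, with -1.81 and -1.95 at the first. A probe annotated to the same transcript record as the first of them but lying upstream, at chr2:173942920-173942979, was not well above background in any RNA. Neither were 3 other probes, of which 2 were annotated to the extra-large form, on all arrays of any RNA. The probe annotated to a noncoding RNA over exon 1A was tested and not called (-0.28 and -0.25 in iPS cells, 0.15 and 0.25 in MEFs). The remaining probe, at chr2:173971466-173971525, passed the signal filter through iPS cells alone. It was not called either (0.17 and -0.21 in iPS cells, -0.12 and -0.29 in MEFs). The called pair and the dim upstream probe are shown because 1 gene name covers them.
Gnas, first downstream probe: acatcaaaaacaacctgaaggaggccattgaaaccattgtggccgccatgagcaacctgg
Gnas, second downstream probe: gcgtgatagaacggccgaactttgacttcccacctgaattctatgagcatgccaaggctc
Gnas, upstream probe: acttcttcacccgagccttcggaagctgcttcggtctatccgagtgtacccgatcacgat

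Plagl1 (Zac1), a zinc-finger factor that regulates other imprinted genes in mice, gave -0.19 and -0.16 in iPS cells, against 0.98 and 0.80 in MEFs at its tested probe. It was called only in iPS cells over MEFs (-1.06 ± 0.082), a call that was lost without MEF replicate 1 (-0.97). A second Plagl1 probe had been left out because its background was marked on MEF replicate 1. Used with fewer marks, a choice made after seeing the data, it gave -0.70 and -0.72 in iPS cells, against 1.96 and 1.89 in MEFs, and was called higher in MEFs (1.92 ± 0.048).

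The Kcnq1 cluster on chromosome 7 also holds Kcnq1, a potassium channel, Slc22a18, a transporter, Cd81, a tetraspanin of the cell surface, and Tssc4, known from human cells to help assemble spliceosomal particles. Cd81 gave 0.02 and 0.03 in iPS cells, against 1.76 and 1.85 in MEFs, and rose in MEFs (1.80 ± 0.049, 3.49-fold). Tssc4 gave -0.39 and -0.33 in iPS cells, against 1.30 and 1.32 in MEFs, and rose in MEFs (1.31 ± 0.047). Both were called lower in iPS cells than in MEFs, while Kcnq1 and Slc22a18 were called in no comparison. Neighbouring maternally expressed genes of the cluster therefore went different ways, with Phlda2 lower and Cd81 and Tssc4 higher in MEFs.

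Ddc and Cobl lie next to Grb10 on chromosome 11. Cobl, an actin nucleator, gave 2.54 and 2.50 in iPS cells, against -1.36 and -1.23 in MEFs (chr11:12136804-12136863). It rose in iPS cells (2.52 ± 0.053, 5.73-fold) and fell in MEFs (-1.29 ± 0.053), the only one of the 35 genes called higher in iPS cells and lower in MEFs. Ddc, which makes dopamine and serotonin from their precursors, gave 1.12 and 1.12 in iPS cells, against -0.43 and -0.63 in MEFs. It rose in iPS cells (1.12 ± 0.060). Its other probe gave 1.08 and 1.11 in iPS cells, against 0.92 and 0.79 in MEFs, so the probes had opposite signs in MEFs and the call of iPS cells over MEFs (1.65 ± 0.084) fell under 2-fold with the mean over both (0.95). While Grb10 was the gene furthest below ES cells in iPS cells, its neighbours on that chromosome were above.

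In the Prader-Willi/Angelman cluster the paternally expressed genes did not move together. Ndn, a MAGE-family protein that promotes growth arrest in neurons, gave -1.60 and -1.56 in iPS cells, against 1.41 and 1.44 in MEFs (chr7:62227911-62227970). It fell in iPS cells (-1.58 ± 0.047) and rose in MEFs (1.43 ± 0.047). Its relative Magel2, a partner of ubiquitin ligases, gave -1.58 and -1.56 in iPS cells, against -0.77 and -0.77 in MEFs, and was called in iPS cells alone. These neighbouring MAGE genes had almost the same ratio in iPS cells and opposite signs in MEFs.

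Peg12 (Frat3), known from mice as an inhibitor of GSK3 in the Wnt pathway, gave 1.68 and 1.75 in iPS cells, against 1.21 and 1.29 in MEFs. It rose in both groups (1.71 ± 0.050 in iPS cells and 1.25 ± 0.050 in MEFs). Mkrn3, a ubiquitin ligase, gave -0.93 and -0.81 in iPS cells, against -1.94 and -1.71 in MEFs, and fell in MEFs (-1.83 ± 0.067). Its difference of iPS cells over MEFs (0.96 ± 0.095) was under 2-fold, and over it without MEF replicate 2 (1.07) or without iPS replicate 1 (1.02). Ube3a, the ubiquitin ligase read from the maternal copy in neurons, was not called at its 2 tested probes. Another Ube3a probe with a marked background on MEF replicate 1 gave 0.34 and 0.34 in iPS cells, against 1.23 and 1.27 in MEFs when used with fewer marks, the opposite sign in both groups from its brightest probe.

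Snrpn, a component of spliceosomal particles, gave -0.38 and -0.44 in iPS cells, against -1.72 and -1.67 in MEFs. It fell in MEFs (-1.70 ± 0.048) and stayed within 2-fold of ES cells in iPS cells (-0.41 ± 0.048). Its second probe gave -0.34 and -0.45 in iPS cells, against -1.64 and -1.75 in MEFs. These probes, at chr7:59866394-59866453 and chr7:59866411-59866470, overlap by 43 bases and differ at 2 of them, so their likeness is not independent support.
Snrpn, brightest probe: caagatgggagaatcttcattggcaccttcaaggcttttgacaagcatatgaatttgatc
Snrpn, second probe: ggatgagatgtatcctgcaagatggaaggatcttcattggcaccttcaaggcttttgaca

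**Figure D3:**
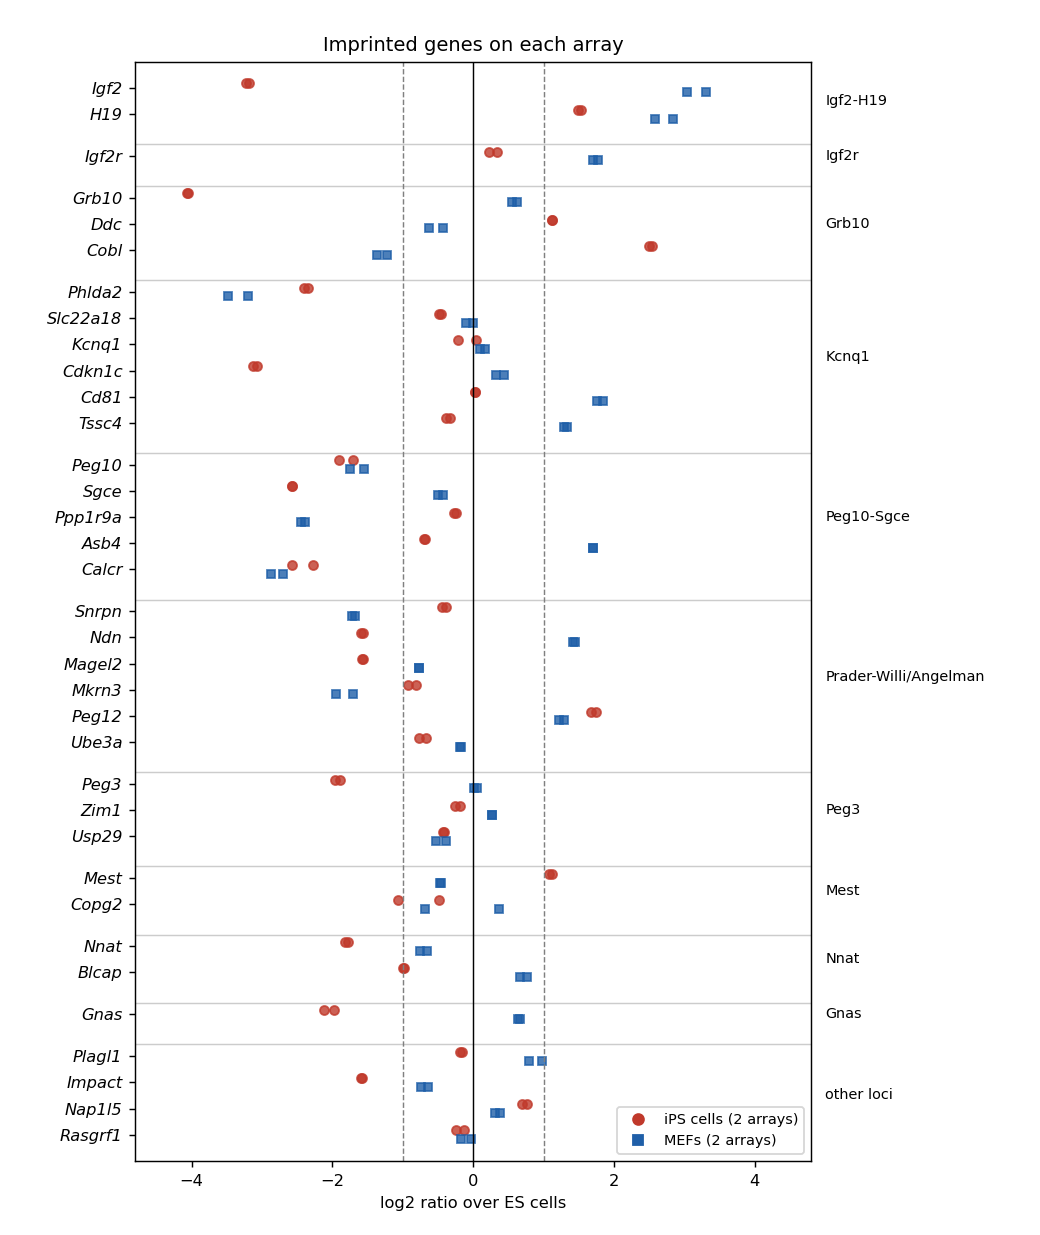
Log2 ratio over ES cells (x axis) of the brightest tested probe of each of the 35 genes on each array, for iPS cells (red circles, upper) and MEFs (blue squares, lower), grouped by imprinted cluster, with dashed lines at 2-fold. Igf2, Ndn and Cobl have both groups called on opposite sides of 0, and Copg2 is the gene whose replicates lie furthest apart, by 0.58 in iPS cells and 1.05 in MEFs.

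Peg3, a paternally expressed zinc-finger protein of growth and maternal behaviour in mice, gave -1.89 and -1.97 in iPS cells, against 0.01 and 0.05 in MEFs (chr7:6311815-6311874). It fell in iPS cells (-1.93 ± 0.048, adjusted p = 4.56e-08 in limma) and did not differ by 2-fold in MEFs. A second Peg3 probe gave -1.29 and -1.49 in iPS cells, against -0.01 and 0.15 in MEFs. Usp29, a deubiquitinase that starts back to back with Peg3 in the windows above, was not called. Its brightest probe gave -0.42 and -0.42 in iPS cells, against -0.53 and -0.39 in MEFs. A second Usp29 probe, which passed the signal filter through iPS cells alone, was not called either. That probe gave 0.23 and 0.18 in iPS cells, against 0.03 and 0.01 in MEFs, the opposite sign from the brightest. Zim1, a maternally expressed zinc-finger gene of the cluster, was well above background in MEFs only, at least 1.16-fold higher than in ES cells. It had entered the test through MEFs alone, so no p is given for that direction. The genes that share a start region thus had different values in iPS cells.

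On proximal chromosome 6, Sgce and Peg10 are paternally expressed neighbours. Sgce, a sarcoglycan of the cell membrane, gave -2.57 and -2.57 in iPS cells, against -0.43 and -0.50 in MEFs, and fell in iPS cells (-2.57 ± 0.048). Peg10, a retrotransposon-derived gene needed for the mouse placenta, gave -1.71 and -1.91 in iPS cells, against -1.74 and -1.55 in MEFs. It fell in both groups (-1.81 ± 0.070 in iPS cells and -1.65 ± 0.070 in MEFs), with iPS cells well above background on 1 of 2 arrays.

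The maternally expressed genes further along that chromosome went their own ways. Ppp1r9a (neurabin), an actin-binding protein of neurons, gave -0.27 and -0.24 in iPS cells, against -2.45 and -2.39 in MEFs, and fell in MEFs (-2.42 ± 0.047). A second Ppp1r9a probe gave -0.71 and -0.64 in MEFs, where its RNA was not well above background, and was not called. Asb4, an adaptor of ubiquitin ligases, gave -0.69 and -0.70 in iPS cells, against 1.70 and 1.70 in MEFs, and rose in MEFs (1.70 ± 0.046). Calcr, the calcitonin receptor, gave -2.58 and -2.28 in iPS cells, against -2.87 and -2.70 in MEFs, and was not well above background in either. By single-channel intensities Calcr was 5.45-fold lower in iPS cells and 6.09-fold lower in MEFs than in ES cells, with dim values raised to the detection floor. The fitted ratios were 5.38-fold and 6.89-fold lower, so the value for iPS cells is no lower limit. Calcr had entered the test through ES cells alone, so no p is given. Its place among the 13 and 7 lower genes was open to that filter. The single-channel values are open to dye bias.

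Mest (Peg1), a paternally expressed member of the alpha/beta hydrolase family, gave 1.12 and 1.08 in iPS cells, against -0.47 and -0.46 in MEFs (chr6:30698289-30698348). It rose in iPS cells (2.14-fold, adjusted p = 5.97e-07 in limma) and was not called in MEFs. Copg2, a coat protein of Golgi vesicles, lies next to it and gave -0.49 and -1.07 in iPS cells, against -0.69 and 0.36 in MEFs at chr6:30698501-30698560. Its replicates disagreed more than those of any other of the 35 genes, and a second probe at nearly the same place gave -0.52 and -1.09 in iPS cells, against -0.66 and 0.30 in MEFs. Both probes thus showed it, while another probe further away gave 0.06 and -0.19 in iPS cells, against -0.17 and -0.22 in MEFs. Copg2 was called lower in iPS cells than in ES cells without iPS replicate 1 (-1.07), and lower in iPS cells than in MEFs without MEF replicate 1 (-1.14), and in neither with all arrays.

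Nnat (neuronatin), a small membrane protein of the endoplasmic reticulum, is read from within an intron of Blcap on chromosome 2. Nnat gave -1.78 and -1.82 in iPS cells, against -0.75 and -0.66 in MEFs, and fell in iPS cells (-1.80 ± 0.049). Blcap, known as a regulator of apoptosis, gave -1.0 and -0.98 in iPS cells, against 0.66 and 0.76 in MEFs. Its value in iPS cells (-0.99 ± 0.050) lay just inside 2-fold and crossed it without iPS replicate 2 (-1.001). Both genes were called lower in iPS cells than in MEFs (-1.09 ± 0.070 for Nnat and -1.70 ± 0.071 for Blcap). Impact, a regulator of the stress kinase Gcn2, gave -1.60 and -1.58 in iPS cells, against -0.64 and -0.74 in MEFs, and fell in iPS cells (-1.59 ± 0.050), under 2-fold with median centring (-0.98). Nap1l5, a nucleosome assembly protein, and Rasgrf1, an exchange factor for Ras, were called in no comparison, and Rasgrf1 was well above background in ES cells only.

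Taken by parental copy, 3 of the 17 paternally expressed genes were called higher and 8 lower in iPS cells over ES cells, with a median of -0.87. Of the 17 tested genes expressed from the maternal copy 2 were higher and 4 lower there, with a median of -0.47. In MEFs over ES cells 3 paternally expressed genes were higher and 3 lower (median -0.46), against 5 higher and 4 lower of the maternally expressed ones (median 0.27). In iPS cells over MEFs the counts were 3 higher and 6 lower for paternally expressed genes and 2 higher and 8 lower for maternally expressed ones. Set against the shares of all genes (9.09% higher and 11.9% lower for iPS cells over ES cells, 14% and 13.7% for MEFs over ES cells, 17% and 19.1% for iPS cells over MEFs), the MEF counts of paternally expressed genes lay near the background. Genes of either copy were on both sides in each comparison, and the difference between the classes was not tested. The classes were assigned by gene name, and which copy was read in these cells was not measured. Gnas stood outside this count because its transcripts differ in their imprinting.

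Read gene by gene, 27 of the 35 genes were called in at least 1 of the 3 comparisons and 8 in none. The share of all genes called in at least 1 comparison, or with each pattern over ES cells below, was not counted. These counts therefore describe the 35 genes and do not set them apart from other genes. Igf2 and Ndn were called lower in iPS cells and higher in MEFs, and Cobl the reverse. H19 and Peg12 were called higher in both, and Phlda2, Peg10 and Calcr lower in both. The H19 values carry the unequal ES signal given above, and Calcr had passed the signal filter through ES cells alone. Peg3, Magel2, Grb10, Cdkn1c, Nnat, Gnas, Sgce and Impact were called lower in iPS cells and not called in MEFs, each from a different imprinted locus. Of the genes not called in iPS cells over ES cells, Igf2r, Cd81, Tssc4 and Asb4 were called higher in MEFs and Snrpn, Mkrn3 and Ppp1r9a lower. The 8 genes called in no comparison lay between -0.78 (Copg2) and 0.73 (Nap1l5) in iPS cells and between -0.46 (Usp29) and 0.35 (Nap1l5) in MEFs.

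Of the 35 genes 16 had several tested probes. Their calls differed between probes for 1 gene in iPS cells against ES cells (Gnas), for 1 in MEFs over ES cells (Ppp1r9a) and for 4 in iPS cells over MEFs. Grb10 probes spanned -4.06 to -1.73 in iPS cells, and H19 probes 2.71 to 5.17 in MEFs. Overlapping probes lay close together for Snrpn and less so for Phlda2, whose probes at chr7:143310959-143311018 and chr7:143310949-143311008 gave -2.37 and -1.98 in iPS cells, against -3.34 and -2.70 in MEFs.

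**Figure D4:**
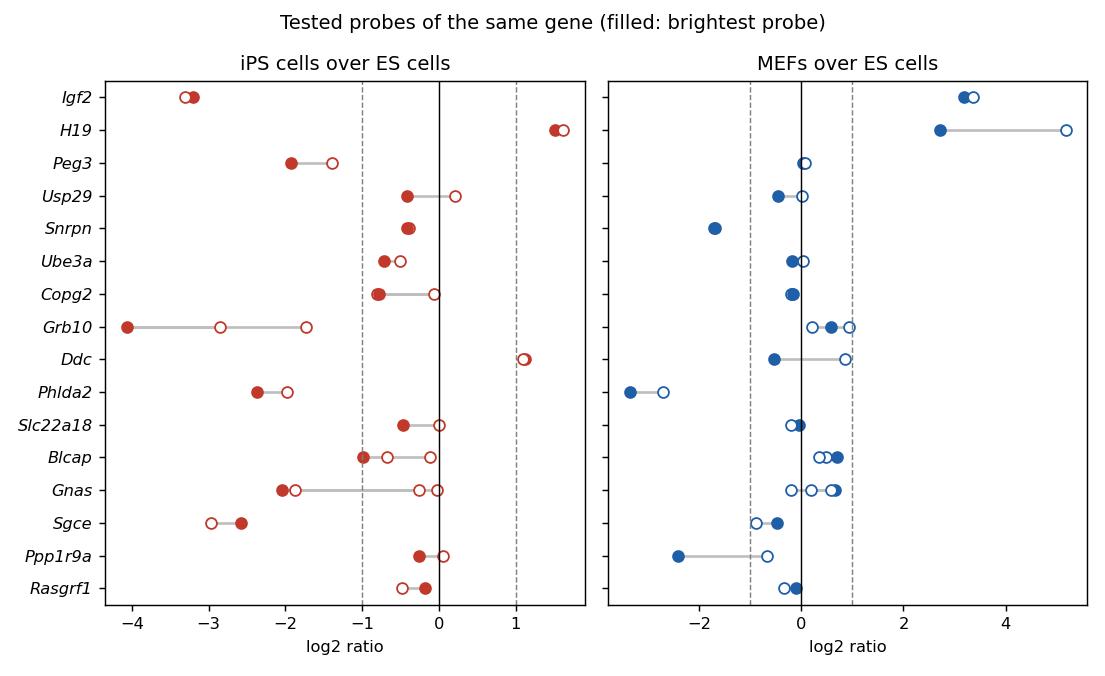
Log2 ratio over ES cells (x axis) of each tested probe of the 16 genes with several, in iPS cells (left, red) and MEFs (right, blue), with the brightest probe of a gene filled. The probes of Igf2 and Snrpn coincide, those of Grb10 span -4.06 to -1.73 in iPS cells and those of H19 span 2.71 to 5.17 in MEFs.

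Genes of a list for imprint setting and maintenance, which also held the demethylation enzyme Tet2, were more often higher than lower in iPS cells. Of 17 tested genes of this list 7 were called higher and 0 lower by limma in iPS cells over ES cells, with a median of 0.86, where 9.09% of all genes were higher and 11.9% lower. Dppa3 (Stella), which protects methylation in the early embryo, stood at 2.71 ± 0.047, Zfp57 at 2.26 ± 0.047 and Dnmt3l, the cofactor of the germ-line methyltransferases, at 1.91 ± 0.079. The others called higher, named after their values were seen, were Dnmt3a (1.57 ± 0.059), Tet2 (1.38 ± 0.055), Uhrf1 (1.32 ± 0.047) and Setdb1 (1.01 ± 0.052). Another Dnmt3a probe was called higher too (1.67 ± 0.050), and a further Dnmt3a probe was not called (0.21 ± 0.047). Trim28 (0.81 ± 0.062) and Dnmt1 (0.95 ± 0.050), named in the same way as partners of Zfp57, did not reach 2-fold.

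In MEFs over ES cells 1 gene of the list was called higher and 7 lower, with a median of -0.71, where 14% of all genes were higher and 13.7% lower. Dnmt3l stood at -4.61 ± 0.079, Dnmt3b, a de novo methyltransferase, at -4.23 ± 0.051 and Dppa3 at -3.69 ± 0.047, and the gene that rose was Ehmt2 (G9a), a histone H3 methyltransferase (1.47 ± 0.053). In iPS cells over MEFs 12 were called higher and 0 lower by limma, against 17% and 19.1% of all genes. Dppa3 and the pluripotency markers overlap, so these values are in part the same as the check of the cells above.

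**Figure D5:**
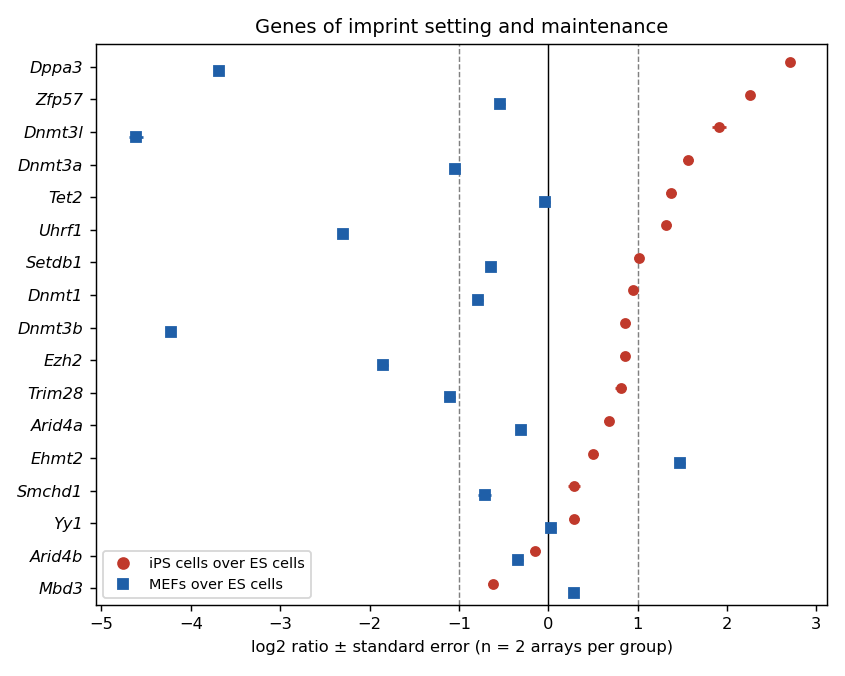
Log2 ratio over ES cells with its standard error (x axis, n = 2 arrays per group) of the 17 tested genes of the list for imprint setting and maintenance, Tet2 included. Red circles (upper) are iPS cells and blue squares (lower) MEFs, with dashed lines at 2-fold. Dppa3, Zfp57 and Dnmt3l stand highest in iPS cells (2.71, 2.26 and 1.91), and Dnmt3l, Dnmt3b and Dppa3 lowest in MEFs (-4.61, -4.23 and -3.69).

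Further imprinted genes that were not among the 37 behaved in a mixed way. Of 23 tested 2 were called higher and 7 lower for iPS cells over ES cells (median -0.40), and 4 higher and 2 lower in MEFs over ES cells (median -0.13). In iPS cells over MEFs 3 were higher and 5 lower. The shares of all genes were 9.09% and 11.9%, 14% and 13.7%, and 17% and 19.1% in these comparisons, so the counts for MEFs and for iPS cells over MEFs lay near the background. Dcn (decorin, a matrix proteoglycan) had log2 ratios of -3.39 ± 0.049 for iPS cells and 3.47 ± 0.049 for MEFs. Pon2, a paraoxonase (-1.81 ± 0.069), and Gatm, an enzyme of creatine synthesis (-1.29 ± 0.060), followed among those lower in iPS cells. Pon3, another paraoxonase (2.59 ± 0.049), followed among those higher in MEFs, and then Tfpi2 (1.78 ± 0.087), which passed the signal filter through MEFs alone. The 2 called lower in MEFs were Sfmbt2 (-2.13 ± 0.058) and Gatm (-1.09 ± 0.060). Another Sfmbt2 probe, not well above background in MEFs, was not called there (-0.82 ± 0.057). Qpct, a glutaminyl cyclase, was the highest in iPS cells (1.55 ± 0.051), followed by Tspan32, a tetraspanin of the Kcnq1 cluster (1.06 ± 0.052). In the Dlk1-Dio3 cluster 4 of 5 tested genes were called lower for iPS cells over ES cells and 1 was called higher for MEFs over ES cells. The noncoding RNAs Rian (-2.55 ± 0.074), Gtl2 (Meg3, -2.25 ± 0.065) and Mirg (-2.11 ± 0.058) stood lowest in iPS cells. By the brightest probes, the gene that rose in MEFs was Dlk1 (2.21 ± 0.046), a Notch-related membrane protein. In MEFs a dimmer Gtl2 probe was also called higher (2.03 ± 0.068), while the other Gtl2 probes were not called. A dimmer Rian probe, not well above background in MEFs, was called lower there (-1.36 ± 0.053).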

How the data were processed

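Per the labels' protocols, 1 µg of RNA per sample was amplified and labelled, with ES cells in Cy3 on all 4 arrays and no dye swap, so dye effects stay in the ratios over ES cells. Per the file headers, the authors read the arrays with Agilent Feature Extraction 10.5.1.1, scanning at 5 micron. Each deposited file holds mean spot intensity and median local background intensity per channel, not normalized. The deposited log10 ratio (Cy5 over Cy3) came from the scanner software's dye-normalized signals (LOWESS factor 0.25 per the file headers), and the authors' value table held the same numbers (largest difference 0). The arrays shared 1 slide and 1 scan, so position and group cannot be told apart.

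Intensities were background-corrected with normexp (offset 50) over unmarked spots and normalized by loess (span 0.3) in limma 3.58.1 (R 4.3.3, the package data.table at version 1.17.8), with control spots at weight 0. The fit over unmarked spots was taken over from an earlier analysis of these data, whose results were known. Replicate spots were averaged per probe. The signal filter (well above background on all arrays of at least 1 RNA) kept 27725 of 41174 gene probes, and 24874 had a value on all arrays. Their log2 ratios, computed from the deposited intensities, were fitted with limma's lmFit and eBayes (residual degrees of freedom 2, prior 4.91), with 1 coefficient per group and ES cells as the reference channel. A gene was represented by its brightest tested probe. Scripts were tested on simulated data. The precision is limited by having 2 arrays in each group.

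The genes, lists and lead tests were chosen with earlier results of these data known. All members are accounted for. Members called in a comparison are given with every array's value, and of the lists of further imprinted, imprint maintenance and Dlk1-Dio3 genes those with the largest called changes are named. Names are those of the array; of the 74 probes 57 had an accession in RefSeq, and all 57 bore the same symbol there. Of the members' spots 18 values were marked and left out. Promoter sequences are from RefSeq (GRCm38.p6), and probe sequences and mm8 coordinates from the array files; the builds were not converted. Alternatives concerned background, normalization, marked spots, the signal filter, the probe of a gene, the replicate block and leaving out each replicate.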

Additional observations from a re-analysis of the deposited data

Results flagged for a closer look

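For 3 of the 35 genes the effects over ES cells were called in opposite directions in iPS cells and MEFs. The difference between iPS cells and MEFs was called for them too. Genes outside the 35 had this pattern as well, among them Dcn and Dlk1, and its share of all genes was not counted. Igf2 differed by -6.38 (log2, iPS cells over MEFs), Ndn by -3.01 and Cobl by 3.81. The test was the limma contrast of iPS cells over MEFs over all probes, with adjusted p of 7.35e-09 for Igf2, 2.4e-08 for Ndn and 1.55e-08 for Cobl. Because the genes were picked by these calls on the same arrays, the p-values are no further support. All 4 arrays showed these directions. Ndn was not called in MEFs over ES cells (0.86), nor in iPS cells over MEFs (-2.44, adjusted p = 0.0561), when normexp was fitted over all spots, and Igf2 and Cobl were not called in MEFs over ES cells there (3.18 and -0.63). With the red channels set against each other without the ES channel, a choice made after seeing the data, the differences were -6.28 for Igf2, -3.04 for Ndn and 3.82 for Cobl.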

How the results depend on the processing

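The number of imprinted genes called was 18 for iPS cells over ES cells, 15 for MEFs over ES cells and 20 for iPS cells over MEFs. With normexp over all spots it was 0 in MEFs over ES cells (12 of 35 at an unadjusted limma p under 0.05, and 0 of all 17241 genes called) and 11 in iPS cells over MEFs, and with marked spots kept 2 and 12. Leaving out 1 array at a time gave 18 to 19 for iPS cells over ES cells, 15 to 15 for MEFs over ES cells and 20 to 22 for iPS cells over MEFs. The scanner software's log ratio gave 22, 18 and 24. Over all genes that log ratio called 2969 higher and 3044 lower for iPS cells over ES cells (main setting 1568 and 2056). For MEFs over ES cells it called 3394 and 3865 (2413 and 2363), and for iPS cells over MEFs 4690 and 4041 (2935 and 3291). The calls thus rose over all genes as well. Median centring gave 17, 19 and 20, and over all genes 2928 higher and 3588 lower for iPS cells over MEFs. The red channels without the ES channel, an alternative chosen after seeing the data, gave 22 in iPS cells over MEFs. Over all genes they gave 3229 higher and 3183 lower. Over single genes and all alternatives 1725 values kept their state, called or not called, while 55 lost a call and 28 gained one. These values include 876 that were not called in the main setting, of which 25 changed sign. No called value changed direction. The median of the imprinted genes was -0.30 for iPS cells over ES cells and 0.21 for MEFs over ES cells with median centring. Same-numbered arrays deviated with a correlation of -0.11 over 24874 probes. The numbers are shared by the groups, and a fit with a replicate block gave 18, 15 and 20 calls, with no gene call changed. The crossed pairing, added after seeing the data, gave 18, 15 and 20 as well. Signal near background limits Calcr, Zim1, Rasgrf1 and Peg10, and the unequal ES signal between arrays limits H19. With 2 arrays per group and 1 dye orientation a dye effect cannot be told apart from a difference over ES cells.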

Other observations

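Markers of further cell types moved between the RNAs as well. The summed normalized intensity of 5 muscle markers (Acta1, Des, Myh3, Myod1 and Myog) was 1480 to 1510 in iPS cells, 32400 to 32500 in MEFs and 15100 to 16800 in ES cells. That of 5 neural markers (Map2, Nes, Pax6, Sox1 and Tubb3) was 3700 to 3790 in iPS cells, 20000 to 22800 in MEFs and 14600 to 14700 in ES cells. For 4 endothelial markers (Emcn, Kdr, Pecam1 and Tek) it was 905 to 922 in iPS cells, 3790 to 3990 in MEFs and 2540 to 2570 in ES cells, and for 4 trophoblast markers (Cdx2, Elf5, Eomes and Hand1) 622 to 631 in iPS cells, 307 to 337 in MEFs and 1310 to 1390 in ES cells. All 4 sums were lower in iPS cells than in ES cells, but not every gene followed its sum. Of the muscle markers 1 was called higher and 2 lower, and of the neural markers 0 and 3. Of the endothelial markers 2 were called higher (Pecam1, 2.09, and Tek, 1.02) and 1 lower (Kdr, -4.10). Of the trophoblast markers 0 were called higher and 1 lower, against 9.09% and 11.9% of all genes. The part of these markers in the lower imprinted genes of iPS cells was not tested.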
